A study of Danio rerio with 4 samples.

Results

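The genes described here are the chemokines and chemokine receptors of the injured zebrafish ventricle outside the Cxcl8 and Cxcl12 systems. They were taken by name: every gene whose symbol begins with ccl, ccr, cxcl, cxcr, xcr or ackr and a digit, without the *cxcl8*, *cxcl12*, *cxcr4* and *ackr3* genes, *cxcr1* and *cxcr2*. The rule found 35 of the 17221 genes of the deposited table, which are 15 CC ligands, 6 CXC ligands, 8 CC receptors, 4 CXC receptors and 2 atypical receptors. No xcr gene was among them, and 34 of the 35 had a mean of at least 10 normalized reads over the libraries and entered the test. A row spelled *CXCL11* in capitals was outside the rule and read 4 and 3 in WT, against 16 and 9 in the transgenic libraries, in the order of replicates 1 and 2.

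Adult AB-strain zebrafish were given a cryoinjury, a local freezing of the heart wall, and then a heat shock at 39 °C, and ventricle RNA was taken 24 h after injury. The groups were WT and Tg(hsp70l:sflt4), each with 2 libraries made from pools of 3 ventricles. In the transgenic fish the heat-inducible *hsp70l* promoter drives sflt4, a secreted fragment of Flt4 (a receptor for Vegfc) that traps its ligand. Heat shock was common to both groups, the promoter is not restricted to a heart cell type, and no transgenic group without heat shock is used here. The study asks which transcripts depend on Vegfc signaling during heart regeneration, so the design implies 1 comparison, Tg(hsp70l:sflt4) against WT.

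Chemokines are small secreted proteins that steer migrating cells, chiefly leukocytes, along concentration gradients. Ligands are classed by the spacing of their first cysteines as CC or CXC, and they act on G protein-coupled receptors of the matching class. Atypical receptors bind and internalize ligands without G protein signaling and so shape the gradient. In an injured heart, chemokines bring neutrophils, monocytes and lymphocytes into the wound. Fish have large families of tandemly duplicated chemokine genes, many without a direct counterpart in mammals.

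The estimated reads counted in genes ranged from 29000000 to 34800000 per library. The authors scaled the reads of each library by its size factor and rounded the result, and these values are called normalized read counts here. Differences were fitted for 1 gene at a time between libraries. The values are not divided by transcript length, so levels of different genes, and sums or shares over genes, compare amounts only roughly. Heart muscle transcripts were abundant in every library, as *myl7* with 335222 and 316610 in WT, against 204313 and 245157 in the transgenic libraries, and T lymphocyte markers were few, with *lck* at 14 to 28. *flt4* itself read 618 and 515 in WT and 504 and 538 in the transgenic libraries, so its values overlapped and did not check the labels. Whether reads of sflt4 are counted in that row is not known. In bulk ventricle RNA, a different number of cells of a type cannot be told apart from a different amount of RNA per cell.

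No member passed the test. limma, on log2(value + 1) with Benjamini-Hochberg adjustment over 17071 genes, called 0 of 34 members and 0 of all genes (0%) at an adjusted p under 0.05. The smallest adjusted p of a member was 0.207, for *ccr12b.2*. At an unadjusted p under 0.05 there were 6 members with higher values in Tg(hsp70l:sflt4), 17.6% of the 34 against 5.57% of all genes tested. The 6 were *ccl34a.3*, *ccl34a.4*, *ccl34b.8*, *ccl35.1*, *ccr12b.2* and *cxcr3.2*. A further 2 members, *ccl25b* and *ccl39.7*, had lower values, 5.88% of the members against 5.45% of all genes.

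Both transgenic libraries stood above both WT libraries for 11 members, 32.4% against 21.8% of all genes tested. Both stood below for 4 members, 11.8% against 21.4%. The 11 members include *ccl35.2*, which reached the minimum mean for the test only through its transgenic values and is also among those with a higher mean. With it counted, the share in the upper direction was above the background and the share in the lower direction under it. The share of overlapping groups, 55.9%, was near the 56.8% of all genes. The mean of the log2 values was higher in Tg(hsp70l:sflt4) for 23 members (67.6%, against 48.7% of all genes), and a higher mean is meant on this scale wherever members or genes of a list are counted. The median log2 difference was 0.27 over the members and -0.01 over all genes. It was 0.26 over the 21 ligands and 0.36 over the 13 receptors tested.

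**Figure D1:**
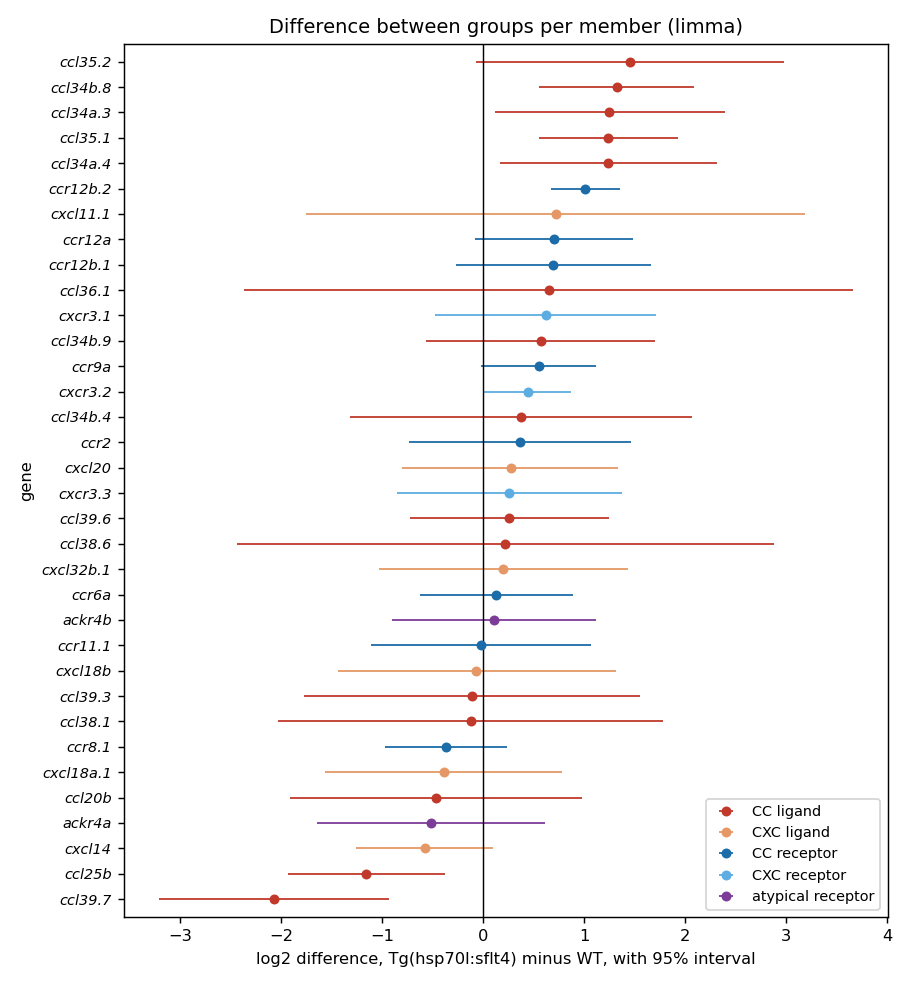
Log2 difference between Tg(hsp70l:sflt4) and WT for the 34 members tested, from limma on log2(value + 1), with 95% confidence intervals (2 libraries per group) and colour by class. Points right of 0 are higher in Tg(hsp70l:sflt4); the intervals of 6 members lie wholly above 0 and those of 2 wholly below, before adjustment for the number of genes tested.

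Among the 15 CC ligands, 6 had both transgenic libraries above both WT libraries: *ccl34a.3*, *ccl34a.4*, *ccl34b.8*, *ccl35.1*, *ccl35.2* and *ccl39.6*. For 2, *ccl25b* and *ccl39.7*, both were below. Over all genes tested, the shares were 21.8% above and 21.4% below. The neighbouring genes *ccl34a.3* and *ccl34a.4* lie on chromosome 2 (danRer11, 40194452 to 40196547 and 40199002 to 40199780, minus strand). *ccl34a.4* gave 2685 and 6713 normalized reads in WT, against 8595 and 11708 in the transgenic libraries. All transgenic values were above the WT values, and WT replicate 1 was the low library. The fitted log2 difference was 1.24 (SE 0.43, limma adjusted p = 0.41), a 2.36-fold difference.

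*ccl34a.3* gave 168 and 464 in WT against 659 and 676. Its log2 difference was 1.25 (SE 0.46, limma adjusted p = 0.425), with the transgenic libraries nearly equal and WT replicate 1 again lowest. *ccl34a.4* alone made up 21.4% and 32.8% of the summed values of the 35 genes in WT, against 39.1% and 47.1% in the transgenic libraries. That sum was 0.0367% and 0.0605% of the library in WT, against 0.0728% and 0.0759% in the transgenic libraries. Without *ccl34a.4* it was 0.0289% and 0.0406% against 0.0444% and 0.0402%, so the groups overlapped.

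The *ccl34b* genes lie in a row on chromosome 24 within 96.3 kb, together with *cxcl32b.1*. *ccl34b.8* (27450085 to 27452488, minus strand) gave 282 and 540 in WT, against 1001 and 953 in the transgenic libraries. The means were 411 ± 182 and 977 ± 33.9 (SD, n = 2), and limma gave a difference of 1.32 on the log2 scale (SE 0.31, adjusted p = 0.313). Its neighbour *ccl34b.9* gave 31 and 68 against 61 and 77, and *ccl34b.4* gave 128 and 30 against 69 and 95. Values of both neighbours overlapped between the groups, and for *ccl34b.4* the WT libraries were the highest and the lowest of all.

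*ccl35.1*, on chromosome 25 (13048201 to 13050959, minus strand), gave 206 and 275 in WT, against 449 and 706 in the transgenic libraries. The lowest transgenic library was above the highest WT library, and the fitted log2 difference was 1.24 (SE 0.28, limma adjusted p = 0.313). *ccl35.2*, which lies elsewhere on that chromosome (25172983 to 25176139, plus strand), gave 7 and 6 against 14 and 27. The groups of this low gene did not overlap either, with a fitted log2 difference of 1.45 (SE 0.62, limma adjusted p = 0.466). *ccl35.2* reached the minimum mean for the test only through its transgenic values, so its separation adds no support.

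*ccl25b* went the other way. It belongs to the family of CCL25, which in mammals is made in thymus and gut and draws lymphocytes through CCR9. The gene (chromosome 11, 6259048 to 6265723, minus strand) gave 1130 and 589 in WT, against 366 and 365 in the transgenic libraries. The transgenic libraries were almost identical, while the WT libraries were 1.92-fold apart and both higher. The mean was 859.5 ± 383 against 365.5 ± 0.707 (SD, n = 2), a fitted log2 difference of -1.16 (SE 0.31, limma adjusted p = 0.347).

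*ccl39.7* (chromosome 25, 12924989 to 12935424, minus strand) had the largest difference of the 34 members, at 38 and 53 in WT, against 9 and 11 in the transgenic libraries. The fitted log2 difference was -2.07 (SE 0.46, limma adjusted p = 0.31), and the replicates of each group did not differ beyond counting error (chi-square of the difference, 95% level). Its neighbours *ccl39.6* (23 and 25 against 29 and 29, log2 difference 0.26, SE 0.40, limma adjusted p = 0.833) and *ccl39.3* (79 and 28 against 27 and 70) did not share its pattern. The *ccl39* genes are named as paralogues and lie side by side, so reads could have been split among them in the authors' counting and their values are uncertain. The same limit applies to the neighbouring *ccl34a*, *ccl34b*, *ccr12b* and *cxcr3* genes.

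The other CC ligands were low and uneven. *ccl20b*, related to the mammalian CCR6 ligand that draws dendritic cells and lymphocytes, gave 31 and 41 in WT against 15 and 43. *ccl36.1* gave 72 and 4 against 31 and 27, and *ccl38.1* gave 81 and 17 against 26 and 45. *ccl38.6* gave 67 and 8 against 15 and 51. The groups of these 4 genes overlapped, and in the last 3 the WT libraries differed by 4.76-fold to 18-fold.

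**Figure D2:**
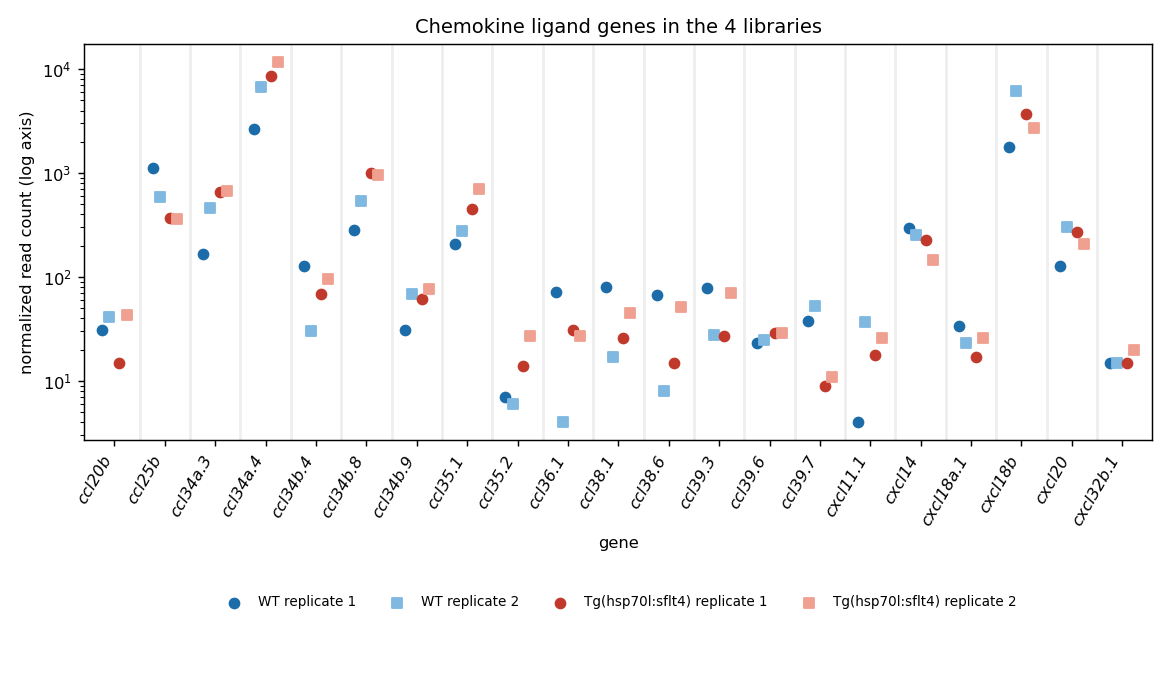
Normalized read counts (log axis) of the 21 chemokine ligand genes, 1 point per library. *ccl34a.3*, *ccl34a.4*, *ccl34b.8* and *ccl35.1* have both transgenic points above both WT points, *ccl25b* and *ccl39.7* have both below, and *cxcl18b* has its WT points on either side.

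None of the 6 CXC ligands had both transgenic libraries above both WT libraries (all genes tested: 21.8%). *cxcl18b*, a fish chemokine that in zebrafish is induced by inflammation and attracts neutrophils, gave 1799 and 6185 in WT, against 3695 and 2745 in the transgenic libraries. The WT libraries, 3.44-fold apart, were the lowest and the highest of all, and the fitted log2 difference was -0.07 (SE 0.56, limma adjusted p = 0.973, 95% interval -1.44 to 1.31). *cxcl20* gave 128 and 302 against 272 and 206, and it too was lowest in WT replicate 1 and highest in WT replicate 2 (log2 difference 0.27, SE 0.43, limma adjusted p = 0.845).

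*cxcl14*, whose mammalian counterpart is made by epithelia and stroma and attracts monocytes and dendritic cells, gave 297 and 252 in WT, against 226 and 147 in the transgenic libraries. Both transgenic libraries were lower, with a fitted log2 difference of -0.58 (SE 0.28, limma adjusted p = 0.499). *cxcl11.1*, which in zebrafish encodes a ligand of Cxcr3.2 that draws macrophages, was low at 4 and 37 against 18 and 26. *cxcl18a.1* gave 34 and 23 against 17 and 26, and *cxcl32b.1* gave 15 and 15 against 15 and 20. The groups of these last 3 genes overlapped, and *cxcl18a.1* overlaps *rassf4* on the other strand.

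Among the receptors, *ccr12b.2* had even replicates. It is a fish CC receptor gene on chromosome 24 (264839 to 265858, plus strand) and gave 528 and 566 in WT, against 1093 and 1111 in the transgenic libraries. The means were 547 ± 26.9 and 1102 ± 12.7 (SD, n = 2), 2.01-fold higher, with a log2 difference of 1.01 (SE 0.14, 95% interval 0.67 to 1.35, limma adjusted p = 0.207). Neither pair of replicates differed by more than counting error.

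Its tandem neighbour *ccr12b.1* (260902 to 261906) gave 114 and 250 against 256 and 293. The groups did not overlap, although the higher WT library was close to the lower transgenic one, and the fitted log2 difference was 0.69 (SE 0.39, limma adjusted p = 0.558). *ccr12a*, a related gene on chromosome 2 (49984159 to 49985351, minus strand), gave 591 and 315 against 636 and 771, with a fitted log2 difference of 0.70 (SE 0.31, limma adjusted p = 0.487). Both transgenic libraries were thus the higher ones for each of the 3 *ccr12* genes (all genes tested: 21.8%).

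*ccr9a*, related to the mammalian CCL25 receptor, gave 303 and 417 in WT, against 590 and 462 in the transgenic libraries, with a fitted log2 difference of 0.55 (SE 0.23, limma adjusted p = 0.459). Its values were higher in both transgenic libraries, where those of the ligand gene *ccl25b* were lower. The atypical receptor genes *ackr4a* and *ackr4b*, whose mammalian counterpart scavenges CCL25 and other CC ligands, did not separate the groups. *ackr4a* gave 208 and 84 against 96 and 88 (log2 difference -0.52, SE 0.46, limma adjusted p = 0.705).

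*ackr4b* gave 1389 and 573 against 1067 and 868 (log2 difference 0.11, SE 0.41, limma adjusted p = 0.942). The arithmetic means of *ackr4b* were 981 in WT and 967.5 in the transgenic group, the opposite order to the log2 difference. For both *ackr4* genes WT replicate 1 was the highest library and WT replicate 2 the lowest. *ackr4b* overlaps *acad11* on the opposite strand, and the labels do not say whether counting used the strand. *acad11* read 771 and 785 against 711 and 699, a narrower range than *ackr4b*.

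*ccr2*, in mammals the receptor that brings monocytes out of the marrow and into wounds, gave 152 and 230 in WT, against 366 and 158 in the transgenic libraries. The transgenic libraries spanned nearly the whole range, with a fitted log2 difference of 0.36 (SE 0.44, limma adjusted p = 0.792, 95% interval -0.74 to 1.46). *ccr8.1*, whose mammalian relative marks T cell subsets, was lower in both transgenic libraries at 160 and 124 against 189 and 175 (log2 difference -0.37, SE 0.25, limma adjusted p = 0.619). *ccr6a*, related to the mammalian CCL20 receptor, gave 60 and 78 against 74 and 76, and *ccr11.1* gave 61 and 31 against 46 and 40. *cxcr5*, which in mammals guides B cells to follicles, read 3 and 19 against 11 and 5 and was under the minimum for the test.

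The *cxcr3* genes form a group of 3 on chromosome 16 within 41.2 kb. *cxcr3.2* (11818126 to 11825303, plus strand), which in zebrafish guides macrophages, gave 1218 and 1211 in WT, against 1434 and 1888 in the transgenic libraries. The WT libraries agreed within counting error, both transgenic ones were higher, and the fitted log2 difference was 0.44 (SE 0.17, limma adjusted p = 0.447). *cxcr3.3*, which in zebrafish acts mainly as a scavenger that dampens Cxcr3.2, gave 289 and 704 against 431 and 675 (log2 difference 0.26, SE 0.45, limma adjusted p = 0.858).

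*cxcr3.1* gave 114 and 112 against 111 and 272 (log2 difference 0.62, SE 0.44, limma adjusted p = 0.641). Transgenic replicate 2 alone was high for this gene. *cxcr3.2* was also highest in transgenic replicate 2, and *cxcr3.3* was highest in WT replicate 2. Each of the 3 receptors had a positive log2 difference with all 4 libraries in the fit. That of *cxcr3.1* was -0.03 without Tg(hsp70l:sflt4) replicate 2, and that of *cxcr3.3* was -0.38 without WT replicate 1 and -0.07 without Tg(hsp70l:sflt4) replicate 2.

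**Figure D3:**
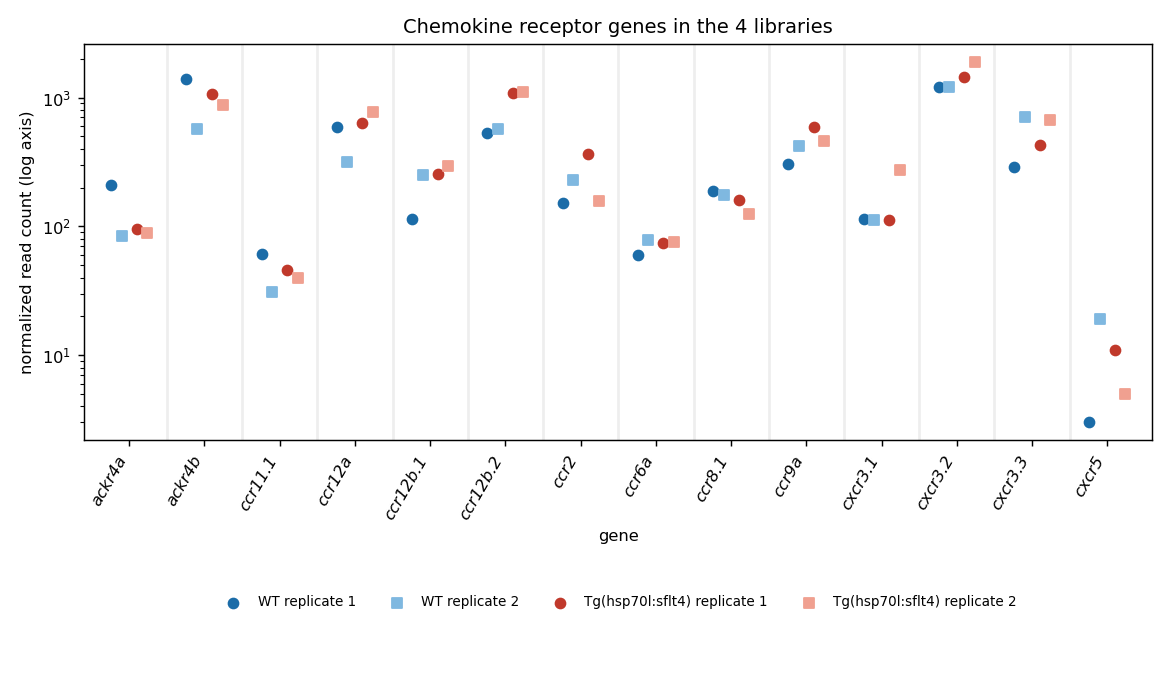
Normalized read counts (log axis) of the 14 chemokine receptor genes, 1 point per library. The *ccr12b.2* points form a pair at 528 and 566 in WT and a pair at 1093 and 1111 in Tg(hsp70l:sflt4), whereas the WT points of *ackr4b*, *ackr4a* and *cxcr3.3* lie far apart.

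Of the 35 genes, 17 lay in 6 groups of neighbours with gaps of at most 200 kb. Differences within such a group were not uniform in size. Both *ccl34a* genes had a log2 difference close to 1.25, and both *ccr12b* genes were higher in the transgenic libraries. In the chromosome 25 group, which spans 126 kb, *ccl39.7* at one end had -2.07 and *ccl35.1* at the other had 1.24, with *ccl39.6* (0.26) and *ccl39.3* (-0.11) between them. On chromosome 5, *cxcl11.1* had 0.72 (limma adjusted p = 0.817) and its neighbour *cxcl20* had 0.27.

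**Figure D4:**
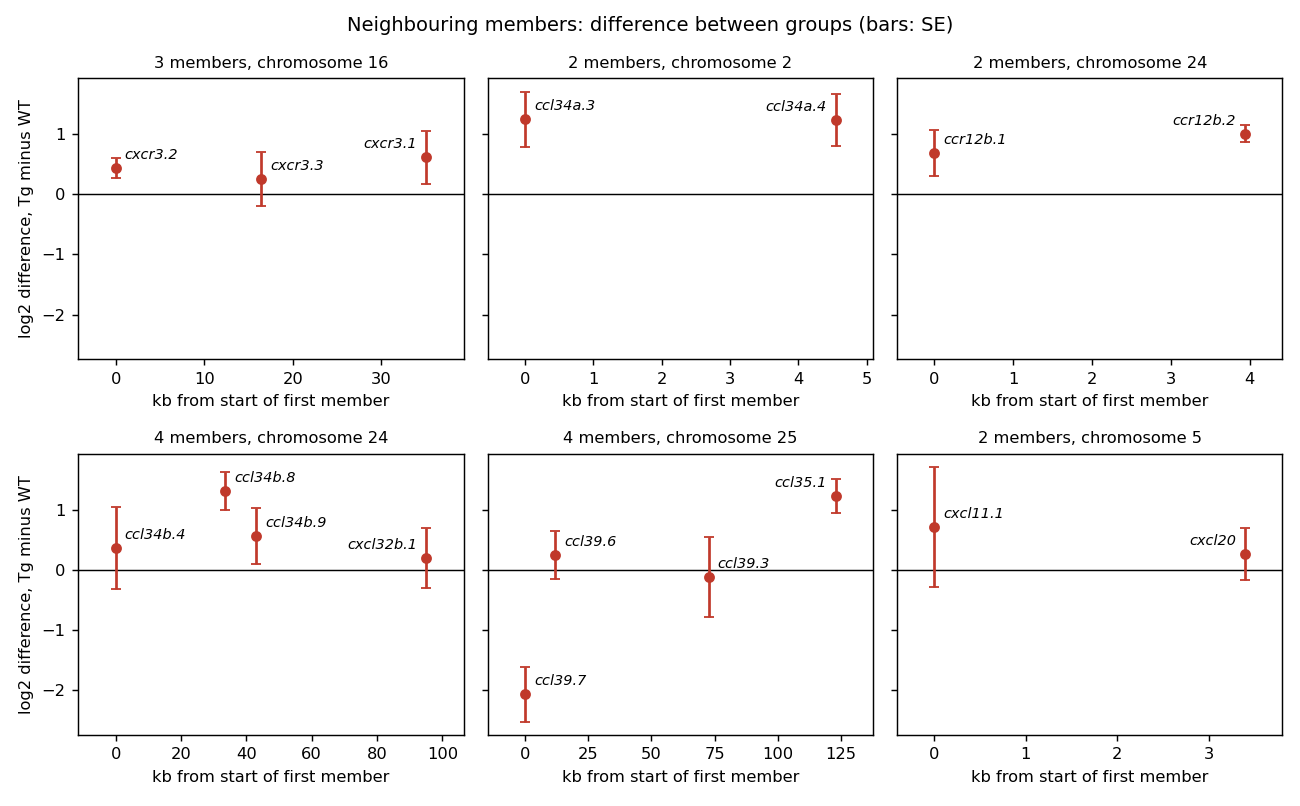
Log2 difference between Tg(hsp70l:sflt4) and WT, with its SE, for the 17 members that have another member within 200 kb, against the distance in kb from the start of the first member of the group. Both points of the chromosome 2 group lie near 1.25, and the points of the chromosome 25 group run from -2.07 to 1.24.

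Replicates of the members lay further apart than those of the median gene, without matching for level. The median fold between the WT replicates was 1.91 over the 34 members and 1.23 over all genes tested, and between the transgenic replicates 1.31 and 1.16. WT replicate 1 was the single highest or lowest library for 27 members, 79.4% against 57.4% of all genes. Replicates differed by more than counting error for 22 members in WT (64.7%, against 58.4% of all genes) and for 19 in Tg(hsp70l:sflt4) (55.9%, against 45.7%).

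The WT libraries enclosed the transgenic ones in both ways, a description made after the values were seen. WT replicate 1 was above and WT replicate 2 below both transgenic libraries for 7 members (20.6%, against 8.98% of all genes): *ackr4a*, *ackr4b*, *ccl34b.4*, *ccl36.1*, *ccl38.1*, *ccl38.6* and *ccr11.1*. The reverse held for 5 members (14.7%, against 8.72%): *cxcl18b*, *cxcl11.1*, *cxcl20*, *cxcr3.3* and *ccr6a*. Of the 20 NF-kB genes measured, 8 had the second shape and 1 had the first. The cytokine gene *il1b* was one of the 8, with 266 and 2955 in WT against 719 and 805, and the 20 genes summed to 17593 and 34278 in WT, against 23357 and 25346 in the transgenic libraries. Of the fibroblast markers, with 6 of 6 found, 5 had the first shape and *pdgfra* did not (2814 and 1668 in WT against 1741 and 1542), and the 6 had sums of 113238 and 47576 in WT, against 100239 and 100642 in the transgenic libraries. The NF-kB and fibroblast lists were picked as those with the largest counts of the 13 lists. No neutrophil marker (11 found), interferon gene (22) or heart muscle marker (6) had either shape. Of the 14 macrophage markers, 1 had the first shape and 1 the second. The part of the NF-kB and fibroblast differences in the members' values was not tested.

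Calls appeared when 1 WT library was left out, and they were not the same genes. Without WT replicate 2, limma called 4 members, while 0.441% of all genes were called. These were *ccl34a.3* (log2 difference 1.98, adjusted p = 0.02923), *ccl34a.4* (1.90, adjusted p = 0.04328), *ccl34b.8* (1.79, adjusted p = 0.02923) and *ccl25b* (-1.63, adjusted p = 0.02937). Without WT replicate 1, when 1.47% of all genes were called, the members called were *ccr12b.2* (0.96, adjusted p = 0.04748) and *ccr12a* (1.15, adjusted p = 0.04998). Without Tg(hsp70l:sflt4) replicate 1 (0.0176% of all genes) or replicate 2 (0%), limma called 0 members. At an unadjusted p under 0.05, 5 members were higher and 2 lower without transgenic replicate 1 (2.66% and 3.58% of all genes), and 3 and 2 without transgenic replicate 2 (1.92% and 2.15%). Without WT replicate 1 these counts were 9 higher and 3 lower (7.55% and 7.6% of all genes), and without WT replicate 2 they were 12 and 6 (8.18% and 8.16%). In these fits the lone library of a group is assumed to vary like the other group.

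The count of members whose groups did not overlap also moved with the library left out, since 3 libraries separate more easily than 4. Without WT replicate 1, the transgenic libraries lay above for 18 of 35 members (36.8% of all genes) and below for 10 (37.2%). Without WT replicate 2 they lay above for 18 of 34 (39%) and below for 13 (40%). Without transgenic replicate 1 the counts were 15 above (34.5%) and 4 below (34.4%), and without transgenic replicate 2 they were 11 above (30.6%) and 8 below (32.1%). The 11 of 34 without transgenic replicate 2 was a share near that of all genes. The 35 members without WT replicate 1 include *cxcr5* (3 and 19 in WT, 11 and 5 in the transgenic libraries). It passed the minimum mean there only through WT replicate 2 and is among the 10 below, so it adds no support. *ccl35.2* passed only through its transgenic values and is among those above in the fits without WT replicate 1, WT replicate 2 or transgenic replicate 1. *ccl36.1* and *ccl38.6* without WT replicate 1, and *cxcl11.1* without WT replicate 2, were likewise above and passed only in this way. These separations add no support either.

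The size of the difference depended on the WT library kept for 3 of the *ccl34* genes. *ccl34a.3* had a log2 difference of 0.52 without WT replicate 1 and 1.98 without WT replicate 2, *ccl34a.4* had 0.58 and 1.90, and *ccl34b.8* had 0.85 and 1.79. *ccl25b* had -0.69 and -1.63. The same held for the receptor genes *ccr12b.1*, with 0.13 without WT replicate 1 and 1.26 without WT replicate 2, and *ccr12a*, with 1.15 and 0.24. *ccr12b.2* kept between 0.96 and 1.06 whichever library was left out, and *ccl39.7* kept between -2.30 and -1.83. The direction of these 8 genes, and of *ccl35.1* and *cxcr3.2*, was the same without each library in turn. That outcome was fixed beforehand, because the groups of each of these genes did not overlap with all 4 libraries.

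**Figure D5:**
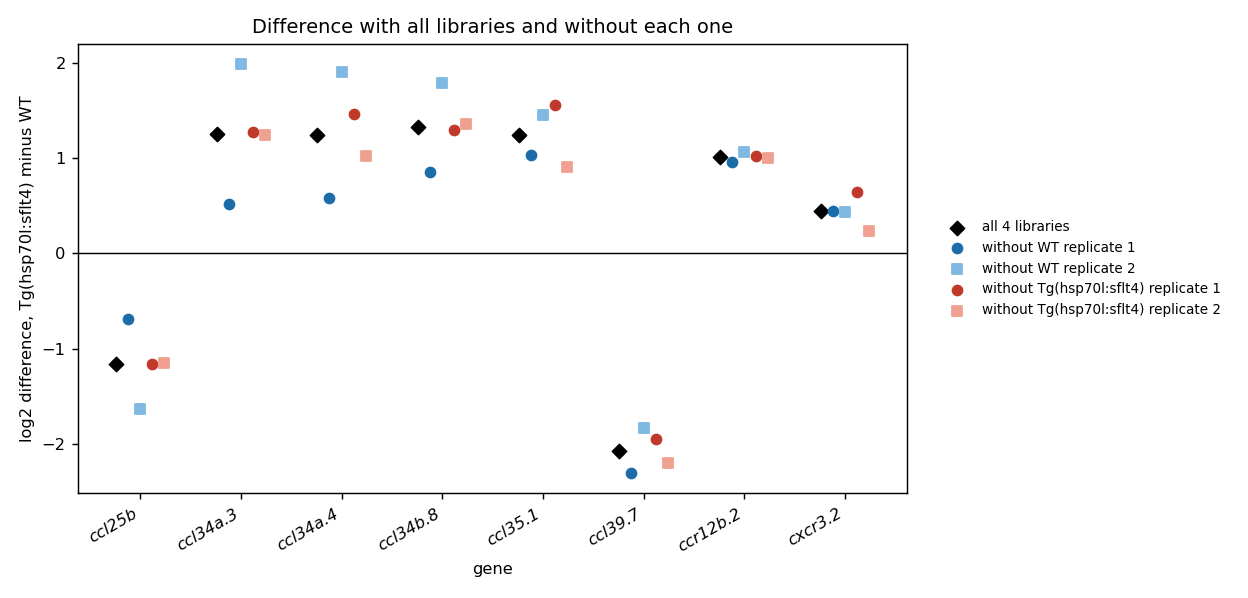
Log2 difference between Tg(hsp70l:sflt4) and WT for the 8 members at an unadjusted p under 0.05, with all 4 libraries and without each library in turn. The points of *ccr12b.2* lie between 0.96 and 1.06, whereas those of *ccl34a.3* run from 0.52 to 1.98.

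Genes that act downstream of chemokine receptors had mostly higher transgenic means. Of 36 genes listed, 26 were found, and 23 of the 26 had the higher mean in Tg(hsp70l:sflt4) (all genes tested: 48.7%). Both transgenic libraries stood above both WT libraries for 14 and below for 1 (all genes tested: 21.8% and 21.4%). The 1 below was *lyn* (1722 and 1861 in WT against 1256 and 1309). limma called 0 of the 26. The median log2 difference was 0.22. The actin regulator genes *wasb* (956 and 963 in WT against 1383 and 1746, log2 difference 0.70) and *coro1a* (5930 and 6466 against 9018 and 11983, 0.75) were among those with the smallest p. The part of leukocyte content in the values of this list was not tested, and receptor signaling itself was not measured.

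Leukocyte marker sums overlapped between the groups for macrophages and neutrophils. For 14 of 15 macrophage markers found the sums were 33732 and 44624 in WT, against 42661 and 56506 in the transgenic libraries. Of the 14, 11 had the higher mean in Tg(hsp70l:sflt4) (all genes tested: 48.7%), and none was at 0 in all libraries. The macrophage transcription factor gene *irf8* was higher in both transgenic libraries (1232 and 1358 against 1845 and 2245), and *csf1ra*, which encodes a receptor for a macrophage growth factor, was lower in both (2129 and 1179 against 1165 and 829). For 11 of 14 neutrophil markers the sums were 14109 and 17655 against 15830 and 23791, with 7 of 11 means higher (all genes tested: 48.7%). For 8 of 15 T lymphocyte markers the sums were 487 and 592 in WT, against 398 and 439 in the transgenic libraries. This sum was mostly *gata3* (331 and 342 against 288 and 325). *il7r* (40 and 105 against 32 and 25) and *cd28* (30 and 103 against 9 and 17) were highest in WT replicate 2. *zap70* was higher in both transgenic libraries (10 and 8 against 15 and 21). For 4 of 9 B lymphocyte markers the sums were 1022 and 1405 against 1805 and 2007. The B lymphocyte sum was mostly *blnk* (930 and 1347 against 1768 and 1965), while *cd79a* (20 and 27 against 18 and 19) and *igic1s1* (62 and 10 against 4 and 6) were lower in both transgenic libraries and *cd79b* overlapped (10 and 21 against 15 and 17). The median log2 difference of the 4 B lymphocyte markers was -0.09. The part of these cell types in the members' values was not tested.

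Dendritic cell markers, with 4 of 4 found, summed to 1481 and 1778 in WT, against 1776 and 2051 in the transgenic libraries. This sum was mostly *id2a* (1288 and 1615 against 1542 and 1807), whose groups overlapped. Only *batf3* of the 4 (41 and 80 against 106 and 115) was higher in both transgenic libraries (all genes tested: 21.8%). The only NK-like marker found of 8, *il2rb*, gave 89 and 31 against 66 and 23. Of the heart's own cells, 8 of 8 endothelial markers summed to 45257 and 42786 against 42615 and 41753, and 5 of 5 epicardial markers to 20175 and 18794 against 18658 and 17417. The epicardial sum was mostly *aldh1a2* (17654 and 17400 against 16762 and 15839). Both transgenic libraries were below for 2 of the 5, *aldh1a2* and *tcf21* (all genes tested: 21.4%). They were above for 1, *wt1b* (506 and 340 against 691 and 529, all genes tested: 21.8%). Heart muscle markers, 6 of 7, summed to 1558951 and 1352335 in WT, against 1069883 and 1162971 in the transgenic libraries. The sum was thus higher in both WT libraries, and 4 of the 6 were lower in both transgenic libraries (all genes tested: 21.4%). The groups of *tnnc1a* (68074 and 39531 against 56867 and 71267) and *nppa* (117943 and 93919 against 127939 and 97173) overlapped, with the higher mean in Tg(hsp70l:sflt4). Of 22 interferon genes, which include known inducers of CXCR3 ligands in mammals, 17 had the higher mean in Tg(hsp70l:sflt4) (all genes tested: 48.7%). Both transgenic libraries stood above both WT libraries for 13 of them and below for 0 (all genes tested: 21.8% and 21.4%). Their sum was 43263 in Tg(hsp70l:sflt4) replicate 1 and 25920 to 28735 in the other libraries. Of the 20 NF-kB genes, 12 had the higher mean in Tg(hsp70l:sflt4) (all genes tested: 48.7%). limma called none of the genes of these lists at an adjusted p under 0.05.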

How the data were processed

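Per the labels, libraries were stranded mRNA-seq from 500 ng of RNA. The values deposited are a score: whole numbers that the authors obtained by scaling each library's read counts by a size factor. Tools named in the submitters' processing notes are FastQC, Trimmomatic 0.38, Subread, featureCounts 1.6.3 and DESeq2 1.18.1, on danRer11, with no roles given. Size factors estimated from the pattern of rounding were 0.885 to 1.10. Raw reads were not recovered, and no count test was used.

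limma 3.58.1 in R 4.3.3 was fitted to log2(value + 1), with trend and robust moderation and no covariate. It covered 17071 genes whose mean over both groups was at least 10. Fold changes on this scale understate those of low genes. With 2 libraries per group, exact permutation reaches a two-sided p of 0.333 at best. Nothing says which fish went into which pool, and p-values reflect only the spread among these libraries. The fit and the size factors were tested on simulated data. In the test of the fit, all genes had the median spread, and changes of 4-fold and 16-fold were set in genes with a mean of at least 100. All 100 changed genes of each size were recovered, with 9 false calls among 16867 genes. This cannot show how well smaller differences, or those of genes with lower values or wider spread, are found.

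Members and gene lists were chosen with earlier results of these data known. By rule, full statistics were given for members with a mean of at least 100, for those with a mean of at least 20 whose groups did not overlap, and for those at an unadjusted p under 0.05. *ccl35.2* and *cxcl11.1* were added after their values were seen. Marker and companion lists were matched by symbol. Up to 3 genes per list, those with the smallest p, could be named. *il1b*, *lck*, *lyn*, *csf1ra*, *cd79b*, *tnnc1a*, *nppa*, *gata3* and *aldh1a2* were added after their values were seen. Alternatives were another pseudocount, filter, scaling, test and moderation, a replicate block, and leaving out each library.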

Additional observations from a re-analysis of the deposited data

How the results depend on the processing

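All 12 alternatives were run. The number of members with a higher mean log2 value in Tg(hsp70l:sflt4), 23, was 20 to 24 when single libraries were left out, and the median over members, 0.27, was 0.19 to 0.47. Making library totals equal moved the median of all genes by 0.11 (log2), to 0.10. The members' median was then 0.37, which is 0.27 above it, and 25 members had the higher mean. At an unadjusted p under 0.05, equal totals gave 1584 genes higher and 549 lower, where the reported fit gave 951 and 930, and 9 members higher and 2 lower. The genes called, 0 with all libraries, were 0 to 250 without single libraries and the members called 0 to 4, and both were 0 under the other alternatives. By limma-voom, 1802 genes had an unadjusted p under 0.05 and none was called, against 1881 in the reported fit. Without single libraries, the members at an unadjusted p under 0.05 were 3 to 12 higher and 2 to 6 lower (all genes tested: 1.92% to 8.18% and 2.15% to 8.16%). Those whose groups did not overlap were 11 to 18 above and 4 to 13 below, where only 3 libraries need to separate (all genes tested: 30.6% to 39% and 32.1% to 40%). Some members in these counts reached the minimum mean through 1 group only. These counts were added after the data were seen. With a mean of at least 50, 5 of 23 members were higher and 1 lower at an unadjusted p under 0.05. Of the 13884 genes tested there, 789 were higher and 753 lower. *ccl39.7*, with a mean of 27.8, was not among them.

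Of 21 members with full statistics by rule, 14 kept their sign under every alternative run. The groups of these 14 did not overlap, so leaving out a library could not reverse their sign. The groups of the other 7 overlapped. The log2 difference of *cxcl18b* was 0.04 with equal totals. Without single libraries it was -0.96 to 0.82 for *cxcl18b*, -1.17 to 0.13 for *ackr4a*, -0.53 to 0.75 for *ackr4b*, -0.24 to 0.97 for *ccr2*, -0.35 to 0.88 for *cxcl20*, -0.03 to 1.26 for *cxcr3.1* and -0.38 to 0.90 for *cxcr3.3*. The cause was not tested. *ccl39.6* and *ccl39.7* gave no value at a mean of at least 50. The titles number the replicates but do not say that a number marks a shared batch. Deviations of the replicates numbered 1 from their group means correlated at 0.137 across 17071 genes. With a replicate block, limma called 0 members and 0 genes. At an unadjusted p under 0.05 this fit gave 6 higher and 3 lower of the 34 members. Of the 17071 genes it gave 2285, with 1180 higher and 1105 lower. The members' means of under 100 normalized reads, 16 of 35, limit precision.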
